A study of Mus musculus with 15 samples.

Results

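The interleukin-6 (IL-6) family of cytokines, their receptors, the transcription factor STAT3 and the feedback inhibitor SOCS3 were examined in mouse pancreas by RNA-Seq. The genes were 10 symbols named by their role: 4 ligands (Il6, Osm, Lif and Il11), 4 receptor genes (Il6ra, Il6st, Osmr and Lifr), Stat3 and Socs3. All 10 were among the 15175 genes listed for the MC experiment and the 49585 genes listed for each of the HC and KMC experiments. The study asked how HPK1, the kinase encoded by Map4k1, and its kinase-dead mutant M46 act in the pancreas, also after injury. All mice were C57BL/6, and each library held RNA from pancreata of 3 pooled mice.

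MC mice carried the M46 transgene together with Bac-cre, a tamoxifen-inducible Cre under the acinar-specific elastase I promoter, so that M46 was expressed in acinar cells. They were 2 months old, were treated with cerulein, a cholecystokinin analog used to bring on pancreatitis, and gave 3 libraries. Their controls gave 3 libraries, were also 2 months old and cerulein treated, and carry the label B control. HC mice carried an HPK1 transgene with the same Bac-cre, were 4 months old, were treated with cerulein and gave 3 libraries. The 2 control libraries of HC came from 4-month-old cerulein-treated mice labelled wild type. For the cerulein experiments the paper's text gives a younger age than the labels, and for most of the groups another number of mice, and the labels were followed here. The methods also mention saline injections for littermate controls, while the series design names cerulein for these controls. KC mice carried Bac-cre among their alleles, were 15 months old and gave 2 libraries. KMC mice carried M46 in addition to the alleles of KC mice, were 9 months old and gave 2 libraries. The labels name no cerulein for KC and KMC mice, and the tissue is labelled pancreas, whereas the paper calls the KC and KMC samples pancreatic ductal adenocarcinoma.

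IL-6 family cytokines signal through gp130, the product of Il6st, which pairs with a chain that recognizes the ligand: the IL-6 receptor α chain (Il6ra), the oncostatin M receptor (Osmr) or the leukemia inhibitory factor receptor (Lifr). JAK kinases bound to gp130 phosphorylate STAT3, which enters the nucleus and turns on target genes, among them Socs3, whose product binds the receptor complex and shuts the signal off. In the pancreas this pathway is known from pancreatitis, where leukocytes and fibroblasts release the ligands and epithelial cells respond.

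Libraries held 29766575 to 38745907 counts, and where 0 counts were found a gene may have had up to 3, equal to 0.0357 to 0.204 CPM (counts-per-million). CPM were scaled by the trimmed mean of M-values (TMM) within each experiment. These limits cover counting error only. Each experiment had its own controls and its own table, so levels were tested only within an experiment. A gene was called where its p from the quasi-likelihood test of edgeR, adjusted by Benjamini-Hochberg over all genes tested, was 0.05 or less and its log2 fold change was at least 1 in size. The replicates were pools of mice, and p-values measure the spread between these pools.

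Several libraries stood apart, and the gene of the transgene did not follow the HC label. Map4k1, which is also a gene of blood cells, on chromosome 7 of GRCm38 from 28982050 to 29003279, was at 15.4 and 11.5 CPM in the controls of HC and at 7.33, 5.05 and 7.93 CPM in HC 1, 2 and 3. All 3 libraries labelled HC lay below both controls, at a log2 fold change of -0.99 (standard error, SE, 0.25) that was not called. Ptprc, the gene of the pan-leukocyte protein CD45, had -0.95 (SE 0.28) there, and Map4k1 was at 13.2 and 15.9% of Ptprc in the controls and at 11.7, 14.4 and 16.2% in HC 1, 2 and 3. Whether reads of the transgene were counted under Map4k1 is not given in the sources used here, so Map4k1 cannot be used to check the HC label. In MC 1, 2 and 3 Map4k1 was at 8.32, 6.79 and 7.51 CPM, above its controls at 3.80, 4.14 and 2.34 CPM. In KMC 1 and 2 it was at 5.92 and 11.4 CPM, above KC 1 and 2 at 0.545 and 1.55 CPM, and Ptprc was likewise higher in MC and in KMC. As a percent of Ptprc, Map4k1 was at 20.9 to 28.4% in MC controls and at 14.3 to 21.7% in MC. It was at 17.4 and 15.4% in KC 1 and 2 and at 17.7 and 19.4% in KMC 1 and 2. The library HC 3 had 1525 counts of the Y-linked Ddx3y and 24 of Xist, as in male tissue, whereas the other 4 libraries of that experiment had 0 counts of Ddx3y and 18228 to 36275 of Xist. KC 1 and 2 had 157 and 448 counts of Ddx3y, and KMC 1 and 2 had 0, with 16505 and 25689 counts of Xist. M46, sex and age therefore cannot be told apart in KMC against KC. Xist and Ddx3y are not among the genes listed for the MC experiment, so the sex of its libraries could not be checked.

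The labelled tissue was checked by its markers. A list of 26 acinar genes, of which Ctrb1 was the most abundant, took 41.5 to 55.3% of the counts in MC controls and 36.1 to 45.5% in MC. It took 68.2% (95% Wilson interval 68.1 to 68.2%) in KC 1, 59.4% in KC 2, 48.0% in KMC 1 and 24.4% in KMC 2, and what part of these samples was tumor was not tested. In the HC experiment the acinar list took only 5.71 to 8.93% of the counts. There the stomach markers, led by Tff2, summed to 4271 and 2632 CPM in the controls and to 9349 to 9428 CPM in the libraries labelled HC. In KC 1 and 2 the sums of 4854 and 1365 CPM were almost all Tff2 (4840 and 1342 CPM), and in KMC 1 and 2 the sums were 724.5 and 306 CPM. Acinar genes were detected in every library, with 1 of the 26 at 0 in HC control 2, but the makeup of the samples differed among the experiments.

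No member of the family was called in any of the comparisons. In MC against control, 8 of the 10 genes passed the filter on low counts, 0 were called by edgeR against 0% of the 13902 genes tested, and 1 had an unadjusted p under 0.05, where 9.2% of all genes did so with a higher and 5.46% with a lower level in MC. DESeq2 called 1 of them and 3.26% of all genes. The groups did not overlap for 1 member, Socs3, which was higher, against 10.9% of all genes higher and 9.89% lower. In HC against control all 10 genes were tested, 0 were called by edgeR and 0 by DESeq2 against 0.565% of 18407 genes by edgeR and 2.54% by DESeq2. The 2 members with an unadjusted p under 0.05, Il6 and Osmr, were lower, against 7.47% of all genes lower and 8.39% higher. Without HC 1 or without HC 2 there was 1 such member, and without HC 3 there were 0. With the replicate number as a block there were 3, without the filter 4, and in a joint fit with KC and KMC 0. Groups did not overlap for 4 members, Il6, Il11, Osmr and Stat3, which were lower, against 16.1% of all genes lower and 17.5% higher.

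In KMC against KC, 9 of the 10 genes were tested and 0 were called by edgeR, against 0.0191% of 15733 genes. DESeq2 called 2, Osmr and Lifr, and 13.7% of all genes. With an unadjusted p under 0.05 there were 3, Osm and Osmr higher and Lifr lower (0.24 with library size alone), as were 16.1% of all genes higher and 9.48% lower. Of the tested members 5 were higher without overlap between the groups, against 34.4% of all genes, and 1 was lower, against 30.9%. Scaling mattered most in this experiment. With library size alone in place of TMM the all-gene median moved by 1.44 on the log2 scale, and 8 members were called, all higher, as were 30% of all genes, 99.6% of them higher. With library size without the acinar list it moved by 0.62, and 1 member, Osmr, was called, as were 12.8% of all genes. Values below are with TMM, relative to the bulk of genes.

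**Figure D1:**
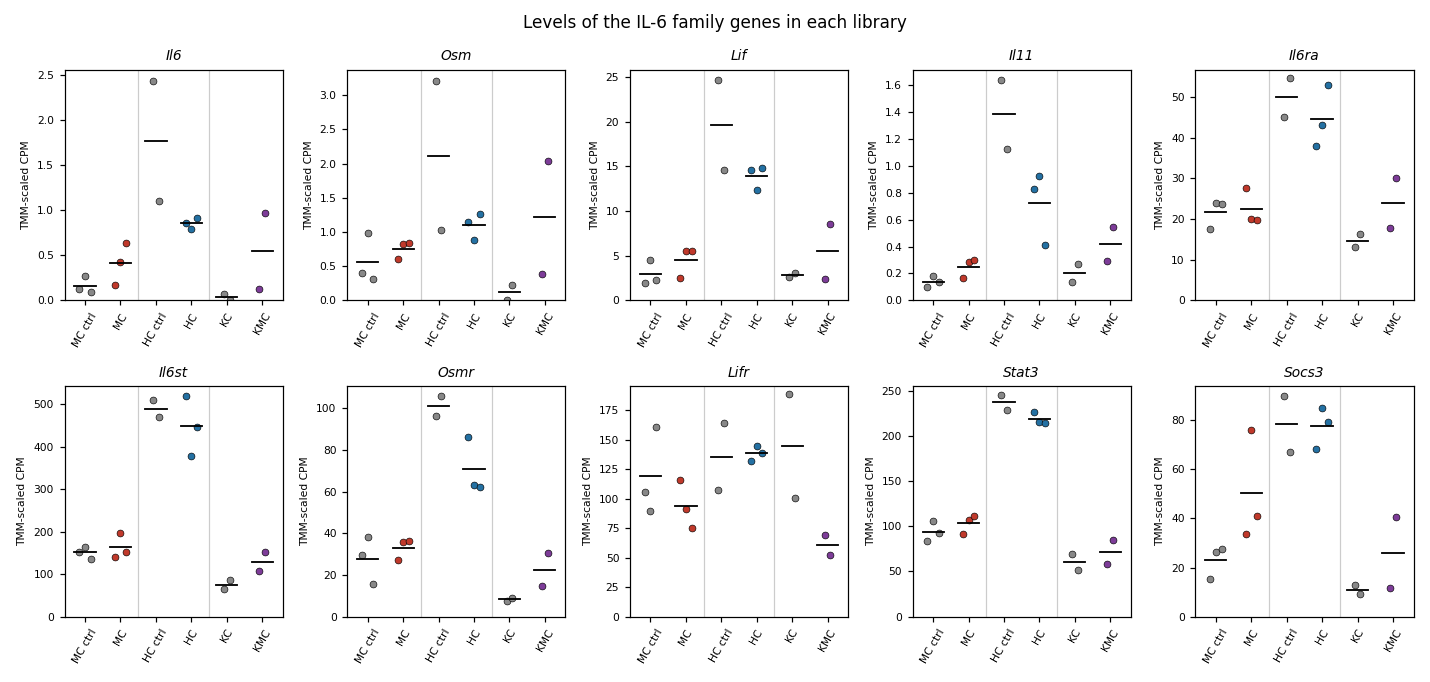
Level of each of the 10 genes in each of the 15 libraries, in TMM-scaled CPM on axes that start at 0. Points are libraries, horizontal lines are group means, and vertical lines separate the experiments, between which levels were not tested. Socs3 lay higher in all 3 MC libraries than in their controls, and KMC 2 stood above KMC 1 for each gene except Lifr.

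Per kilobase of exon, Il6st, Socs3, Stat3 and Lifr were the most abundant members in every group and the ligands Il11, Il6 and Osm the least. In MC controls the means were 13.6 ± 1.27 CPM per kilobase for Il6st, 11.04 ± 3.48 for Lifr, 9.87 ± 1.21 for Stat3 and 7.97 ± 2.34 for Socs3 (SD, n = 3). These neighbors in the order lay within about their spread of each other. Il6ra (2.52 ± 0.428), Osmr (2.29 ± 0.950), Lif (0.672 ± 0.315) and Osm (0.249 ± 0.1603) followed on the same scale, and Il6 (0.0673 ± 0.0383) and Il11 (0.0661 ± 0.0191) were the lowest (SD, n = 3). Il6 and Il11 did not differ beyond their spread, and neither did Il6ra and Osmr. In MC, Socs3 had the highest mean at 17.3 ± 7.80 CPM per kilobase, next to Il6st at 14.7 ± 2.65 (SD, n = 3). In KC the order opened with Lifr at 13.4 ± 5.82 CPM per kilobase, then Il6st at 6.76 ± 1.29, and in KMC with Il6st at 11.7 ± 2.84, then Socs3 at 9.02 ± 7.05 (SD, n = 2).

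Among the ligands, Il6, the founding member and an inducer of the acute phase response, was near the limit of detection in the MC and KMC experiments. It had 4, 9 and 2 counts in MC control 1, 2 and 3 and 5, 18 and 26 counts in MC 1, 2 and 3. MC 2 and 3 were above all controls, MC 1 lay within their range, and the gene was below the filter for the test. Within the HC experiment, Il6 was at 2.44 and 1.101 CPM in controls and at 0.857, 0.794 and 0.920 CPM in HC 1, 2 and 3. All 3 libraries labelled HC were lower than both controls, and control 1 stood apart from the rest. The log2 fold change was -1.04 (SE 0.40, n = 3 and 2), with an edgeR quasi-likelihood p of 0.280 after Benjamini-Hochberg adjustment, and without HC control 1 it was -0.36. Il6 had 1 and 0 counts in KC 1 and 2 and 5 and 81 counts in KMC 1 and 2. Almost all of its counts in that experiment came from KMC 2, where it reached 0.965 CPM, and it was not tested.

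Osm encodes oncostatin M, a ligand made mainly by macrophages, neutrophils and T cells. It was at 0.397, 0.983 and 0.314 CPM in MC control 1, 2 and 3 and at 0.608, 0.823 and 0.840 CPM in MC 1, 2 and 3. The groups overlapped, with MC control 2 the highest of the 6 libraries, and the log2 fold change of 0.39 (SE 0.47) was 1.07 without MC control 2 and 0.15 without MC control 3. As a percent of Ptprc, Osm was at 2.96 to 4.96% in MC controls and 1.59 to 2.01% in MC, whereas the groups overlapped in the HC experiment (2.76 and 1.41% in controls, 1.84 to 2.59% in HC) and in KMC (1.18 and 3.47%, against 0 and 2.31% in KC). Osm in the HC experiment was at 3.21 and 1.02 CPM in controls and at 1.15, 0.890 and 1.27 CPM in the libraries labelled HC. The log2 fold change of -0.93 (SE 0.50) rested on control 1, without which it was 0.11. In KC 1 and 2 Osm had 0 counts, which allows 0.204 CPM, and 6 counts (0.232 CPM), and in KMC 1 and 2 it was at 0.393 and 2.04 CPM. Both KMC libraries were higher than both KC libraries, at a log2 fold change of 3.15 (SE 1.19, n = 2 and 2) and a Benjamini-Hochberg adjusted p of 0.163 by the edgeR quasi-likelihood fit. Without KMC 2 the log2 fold change was 1.54, and without KC 2, which leaves 0 counts in KC, it was 8.84. Over the alternatives the adjusted p of Osm, from edgeR or DESeq2 with Benjamini-Hochberg adjustment, ranged from 0.000677 to 0.807, and Osm was called with library size alone, with the replicate block and without KMC 1.

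Lif encodes leukemia inhibitory factor. It was at 1.98, 4.496 and 2.29 CPM in MC controls and 2.54, 5.50 and 5.51 CPM in MC, where MC 1 lay within the range of controls (log2 fold change 0.62, SE 0.41, and 0.41 to 1.08 on leaving out each library). Levels in the HC experiment were 24.7 and 14.6 CPM in controls and 14.6, 12.4 and 14.8 CPM in the libraries labelled HC. The groups overlapped, and the log2 fold change of -0.50 (SE 0.23) was -0.07 without HC control 1. KC 1 and 2 had 2.59 and 3.02 CPM of Lif, and KMC 1 and 2 had 2.38 and 8.57 CPM. The library KMC 2 alone was high, and the log2 fold change of 0.97 (SE 0.61) became -0.22 without it.

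Il11, a ligand released by fibroblasts and epithelial cells, was also scarce. It had 3, 6 and 3 counts in MC controls and 5, 12 and 12 in MC, too few to be tested. Its levels in the HC experiment were 1.64 and 1.13 CPM in controls and 0.827, 0.922 and 0.412 CPM in the libraries labelled HC. All 3 of these were lower than both controls, at a log2 fold change of -0.93 (SE 0.42, and -0.64 without HC control 1) and an edgeR quasi-likelihood p of 0.345 after Benjamini-Hochberg adjustment. In KC 1 and 2 Il11 was at 0.136 and 0.271 CPM and in KMC 1 and 2 at 0.295 and 0.548 CPM, from 2, 7, 12 and 46 counts. The groups did not overlap, and the log2 fold change of 0.996 (SE 0.77) was 0.48 without KMC 2 and 1.63 without KC 2.

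Of the receptors, Osmr, the chain that binds oncostatin M, had the lowest adjusted p of the family in the HC and KMC experiments. It was at 29.6, 38.3 and 15.5 CPM in MC control 1, 2 and 3 and at 27.1, 35.7 and 36.5 CPM in MC 1, 2 and 3. MC control 3 was the lowest library, and the groups overlapped (log2 fold change 0.25, SE 0.30, and -0.020 without it). Within the HC experiment, Osmr was at 96.5 and 106 CPM in controls and at 86.4, 63.3 and 62.4 CPM in HC 1, 2 and 3. All libraries labelled HC were lower, at a log2 fold change of -0.52 (SE 0.16, n = 3 and 2) and a Benjamini-Hochberg adjusted p of 0.213 by the edgeR quasi-likelihood fit. The value was -0.69 without HC 1 and -0.44 without HC 2, the ends of its range over the alternatives. Its adjusted p from edgeR or DESeq2, with Benjamini-Hochberg adjustment, ranged from 0.0350 to 0.860 over them. No value reached 1 in size, so Osmr was never called there.

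In KC 1 and 2 Osmr was at 7.49 and 9.06 CPM, and in KMC 1 and 2 at 14.6 and 30.6 CPM. Both KMC libraries were above both KC libraries, at a log2 fold change of 1.45 (SE 0.42, n = 2 and 2) and an edgeR quasi-likelihood p of 0.116 after Benjamini-Hochberg adjustment. Over the alternatives the adjusted p of edgeR or DESeq2 with Benjamini-Hochberg adjustment ranged from 0.00111 to 0.63. The log2 fold change was 0.83 without KMC 2 and 1.87 without KMC 1. Relative to the summed fibroblast markers, Osmr was at 1.68 and 1.001% in KC and 0.674 and 0.482% in KMC, lower in both KMC libraries than in both KC libraries, while its CPM were higher. In such bulk samples, more cells of a type and more RNA per cell cannot be told apart.

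Lifr, the receptor for leukemia inhibitory factor, was the member with a negative log2 fold change in both comparisons of M46. It was at 106, 89.9 and 161 CPM in MC control 1, 2 and 3 and at 116, 91.6 and 75.1 CPM in MC 1, 2 and 3. The groups overlapped, and the log2 fold change of -0.34 (SE 0.25) was 0.023 with library size alone, which moved the median of all genes by 0.32, and -0.041 without MC control 3. In the HC experiment Lifr was at 107 and 164 CPM in controls and at 132, 145 and 139 CPM in the libraries labelled HC, all between both controls. Its log2 fold change of 0.03 (SE 0.18) was -0.0044 with library size alone and -0.25 and 0.37 without HC control 1 and 2. In KC 1 and 2 Lifr was at 189 and 100 CPM, and in KMC 1 and 2 at 69.2 and 52.1 CPM. Both KMC libraries were lower, at a log2 fold change of -1.25 (SE 0.48, and -0.74 without KC 1) and a Benjamini-Hochberg adjusted p of 0.164 by the edgeR quasi-likelihood fit. With library size alone the value was 0.24, where the median of all genes was 1.47. Over the alternatives the adjusted p of Lifr in KMC against KC, from edgeR or DESeq2 with Benjamini-Hochberg adjustment, ranged from 0.0335 to 0.777.

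Il6st, which encodes the shared chain gp130, was at 137 to 165 CPM in MC controls and 141 to 197 CPM in MC, at a log2 fold change of 0.11 (SE 0.16, and -0.045 without MC 2). In the HC experiment it was at 470 and 509 CPM in controls and 377 to 520 CPM in the libraries labelled HC, and the log2 fold change was -0.13 (SE 0.17, and -0.25 to -0.016 on leaving out each library). The groups overlapped in both of these experiments. KC 1 and 2 had 65.0 and 85.2 CPM of Il6st and KMC 1 and 2 had 107 and 152 CPM, without overlap (log2 fold change 0.79, SE 0.43). Il6ra, the IL-6 binding chain, which can also be shed as a soluble receptor, was at 17.5 to 24.1 CPM in MC controls and 19.7 to 27.6 CPM in MC, at a log2 fold change of 0.04 (SE 0.19) whose sign changed without MC 1 (-0.12) or MC control 1 (-0.09). In the HC experiment Il6ra was at 45.2 and 54.7 CPM in controls and 37.96 to 52.9 CPM in the libraries labelled HC (log2 fold change -0.16, SE 0.17, and -0.32 to -0.018 on leaving out each library). In KC it was at 13.1 and 16.2 CPM and in KMC at 17.7 and 30 CPM, without overlap (log2 fold change 0.70, SE 0.37, and 0.29 without KMC 2).

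Stat3, the transcription factor downstream of gp130, varied little in MC. It was at 83.4, 106 and 92.5 CPM in MC controls and at 91.3, 107 and 111 CPM in MC. The ranges overlapped, and the log2 fold change was 0.14 (SE 0.14, and 0.054 to 0.23 on leaving out each library). In the HC experiment it was at 246 and 229 CPM in controls and at 227, 216 and 214 CPM in the libraries labelled HC. These were lower without overlap, but the log2 fold change was only -0.12 (SE 0.10, and -0.065 without HC control 1). Stat3 was at 69.0 and 51.9 CPM in KC and at 58.0 and 85.0 CPM in KMC. The groups overlapped, and the log2 fold change of 0.24 (SE 0.39) was -0.039 without KMC 2.

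Socs3, the feedback inhibitor that STAT3 induces, had the largest log2 fold change of the tested members in MC. It was at 15.3, 26.4 and 27.4 CPM in MC control 1, 2 and 3 and at 33.6, 75.8 and 41.1 CPM in MC 1, 2 and 3. All 3 MC libraries were higher than all 3 controls, and MC 2 was the highest. The means were 50.2 ± 22.6 CPM (SD, n = 3) in MC and 23.0 ± 6.76 CPM (SD, n = 3) in controls. The log2 fold change was 1.12 (SE 0.34), with an edgeR quasi-likelihood p of 0.233 after Benjamini-Hochberg adjustment. DESeq2 gave the same log2 fold change and an adjusted p of 0.0423 after Benjamini-Hochberg adjustment, the lowest over the alternatives, whose highest was 0.678 from edgeR. Without MC 2 the log2 fold change was 0.70. Relative to Ptprc, Socs3 was at 114 to 327% in controls and 78.4 to 185% in MC, at 77.2 and 92.4% in the controls of HC and 109 to 243% in HC, and at 409 and 91.9% in KC and 34.95 and 69.1% in KMC.

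Socs3 in the HC experiment was at 89.8 and 67.1 CPM in controls and at 68.3, 85.1 and 79.2 CPM in the libraries labelled HC. These libraries lay between both controls, at a log2 fold change of -0.02 (SE 0.16, and 0.21 and -0.21 without HC control 1 and 2). Socs3 was at 12.8 and 9.25 CPM in KC 1 and 2 and at 11.7 and 40.5 CPM in KMC 1 and 2. KMC 1 lay within the range of KC and KMC 2 was the highest library, so the log2 fold change of 1.25 (SE 0.57) was 0.11 without KMC 2.

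**Figure D2:**
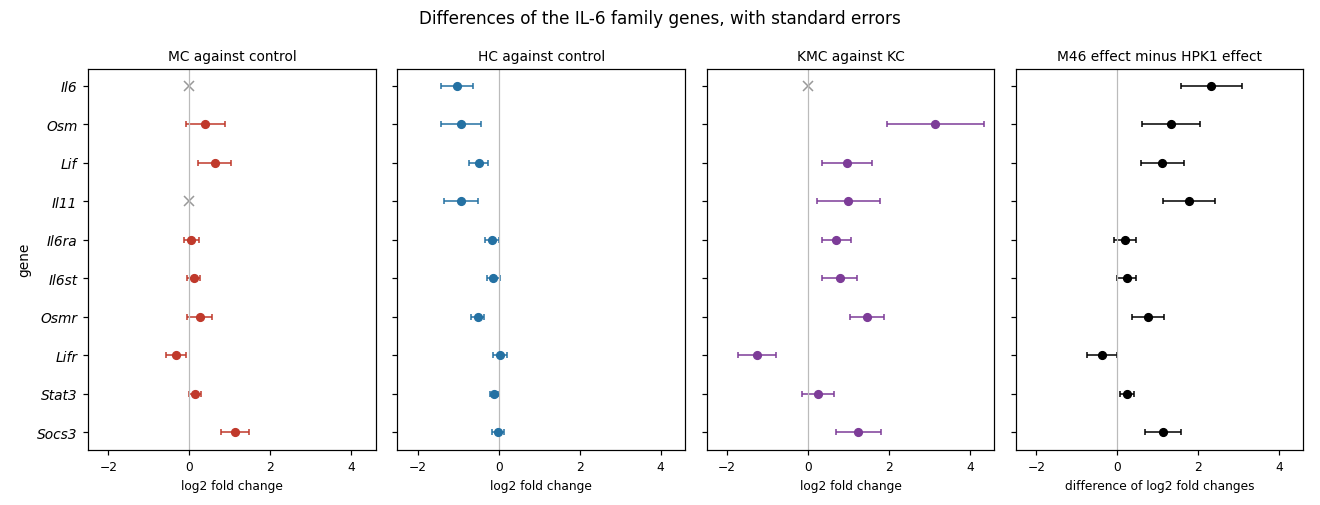
Log2 fold change of each of the 10 genes in each comparison, and in the last panel the difference of the log2 fold changes of MC and HC. Bars are standard errors (SE) and crosses mark genes not tested. Points for Il6, Osm, Lif and Il11 lie below 0 in HC against control, at -1.04, -0.93, -0.50 and -0.93.

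The effects of both transgenes after cerulein were then compared directly, as the log2 fold change of MC against its controls minus that of the libraries labelled HC against theirs. The direction of this difference is that of the labels, which could not be checked with Map4k1, and after the data were seen the values were also computed with the sign of the HC effect turned. Both experiments also differed in age (2 months for MC and 4 months for HC), in the label of their controls and in acinar share. The part of these in the difference was not tested. All 10 members were tested in this fit, 0 were called by edgeR and 0 by DESeq2, against 2.18% of 14884 genes by edgeR and 6.79% by DESeq2. The 3 members with an unadjusted p under 0.05, Il6, Il11 and Socs3, had the higher effect in MC, as did 12.3% of all genes. With HC turned there was 1 such member, Socs3. Il6 and Il11 were below the filter in MC against control, with 2 to 26 and 3 to 12 counts per library there. Their levels were higher in the HC experiment, and no conclusion is drawn from their differences and p-values. For 9 of the 10 genes, Il6 and Il11 among them, the difference was positive, against 4 of the 10 with HC turned. The median difference of all genes was -0.03, and 0.02 with HC turned. The share of all genes with a positive difference was not computed, so no conclusion is drawn from this count. For Lifr the difference was -0.38 (SE 0.36), and 0.050 with library size alone. The differences were 2.32 for Il6 (SE 0.76), 1.78 for Il11 (SE 0.64) and 1.13 for Socs3 (SE 0.45). Their Benjamini-Hochberg adjusted p-values by edgeR were 0.121, 0.149 and 0.185. With HC turned the values were 0.27 for Il6, -0.057 for Il11 and 1.12 for Socs3, and 0 members and 0.107% of all genes were called. Without MC control 2 Il6 was called, with an adjusted p of 0.0482 from the same edgeR test with Benjamini-Hochberg adjustment. This was the lowest over its alternatives, whose highest was 0.941 with HC turned. Because Il6 had few counts in the MC experiment, no conclusion is drawn from this call, in which the difference of Il6 was 2.89. Without HC control 1 it was 1.65, and 0 members had an unadjusted p under 0.05. Differences were 1.32 for Osm (-0.53 with HC turned), 1.11 for Lif (0.14), 0.76 for Osmr (-0.25), and 0.20 to 0.24 for Il6ra (-0.11), Il6st (-0.0071) and Stat3 (0.032). Without HC control 1 that of Osm was 0.29 and that of Lif 0.69, and without MC 2 that of Socs3 was 0.71. Leaving out each library gave differences of 0.48 to 1.06 for Osmr, 0.022 to 0.33 for Il6ra and 0.082 to 0.35 for Il6st. The ranges were 0.16 to 0.33 for Stat3 and -0.73 to -0.086 for Lifr.

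Other genes of the pathway were taken from lists by role, and edgeR called 0 of their genes. With an unadjusted p under 0.05 there were 17 of 60 tested in MC, 10 of 65 in the libraries labelled HC and 28 of 61 in KMC, against 14.7, 15.9 and 25.6% of all genes. DESeq2 called 4, 2 and 22 of them in the same order, against 3.26, 2.54 and 13.7% of all genes. The medians of all genes tested were -0.02, -0.0011 and 0.03, and 46.9, 49.8 and 51.3% of them had a positive log2 fold change. Among other ligands of the family, Clcf1 was at 0.885 and 1.59 CPM in KC and 4.25 and 7.47 CPM in KMC (log2 fold change 2.22, SE 0.52), and in MC its log2 fold change was 0.50. Ebi3, a subunit of IL-27, had 0.80 in MC. In the libraries labelled HC it had -0.80 and the other subunit, Il27, had -0.95, and Ctf1 had -0.91 in KMC, or 0.52 with library size alone.

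The 4 other receptors were Cntfr, Il11ra1, Il27ra and Il31ra. Their median log2 fold changes were -0.02 (0.30 with library size alone) over 3 tested genes in MC, -0.15 over 4 in the libraries labelled HC and 2.14 over 3 in KMC. Il27ra, a receptor of lymphocytes, was at 0.272 and 0.426 CPM in KC and at 2.09 and 4.43 CPM in KMC. Its log2 fold change there was 3.18 (SE 0.65), against 1.06 in MC, where the groups did not overlap either, and -0.85 in the libraries labelled HC, where they overlapped. Cntfr had log2 fold changes of 2.14 in KMC, -0.08 in MC (0.23 with library size alone) and -0.23 in the libraries labelled HC. Il11ra1, the receptor for IL-11, was at 33.4 to 41.1 CPM in all libraries of the MC experiment (log2 fold change -0.02, or 0.30 with library size alone) and had -0.33 in KMC (1.22 with library size alone), and Il31ra had 0.41 in the libraries labelled HC.

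Of the other genes of JAK and STAT proteins, Stat2, which carries the signal of interferons, was at 20.7, 19.8 and 16.2 CPM in MC controls and at 37.7, 72.4 and 86.2 CPM in MC 1, 2 and 3. All MC libraries were higher, at a log2 fold change of 1.79 (SE 0.29) and a Benjamini-Hochberg adjusted p of 0.0831 by the edgeR quasi-likelihood fit. Jak2 had 0.41 in MC. In KMC the log2 fold changes were 1.26 for Stat2 and 0.93 for Jak3, the kinase of cytokine receptors on lymphocytes, both without overlap. In the libraries labelled HC they were -0.48 for Jak3 and -0.71 for Stat4.

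Among 14 negative regulators and sheddases, 9 had a positive log2 fold change in MC (median 0.05), 3 in the libraries labelled HC (median -0.10) and 10 in KMC (median 0.20). Socs1, an inhibitor of JAK kinases, was at 0.926, 1.102 and 0.809 CPM in MC controls and at 2.06, 2.96 and 2.96 CPM in MC. Every MC library was above every control, at a log2 fold change of 1.49 (SE 0.27) and an edgeR quasi-likelihood p of 0.0865 after Benjamini-Hochberg adjustment. Socs1 was at 0.136 and 0.464 CPM in KC and 1.72 and 3.18 CPM in KMC (log2 fold change 2.93, SE 0.73). Ptpn6, a phosphatase of blood cells, had 0.71 in MC and 1.38 in KMC, and Ptpn2 had -0.25 in MC (0.09 with library size alone) and -0.28 in the libraries labelled HC. Adam17, a protease that sheds the IL-6 receptor, was at 77.4 and 63.7 CPM in the controls of HC and at 53.7, 45.6 and 49.2 CPM in HC 1, 2 and 3 (log2 fold change -0.51, SE 0.12). Socs2 had -0.22 there. Cish, an inhibitor of STAT5 signaling, was at 51.4 and 16.1 CPM in KC and at 9.83 and 7.95 CPM in KMC, with a log2 fold change of -1.92, or -0.34 with library size alone.

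The 18 STAT3 target genes are also targets of other factors. Of these, 14 had a positive log2 fold change in MC (median 0.47), 6 in the libraries labelled HC (median -0.12) and 13 in KMC (median 1.07). Myc was at 41.7, 36.6 and 56.3 CPM in MC controls and at 29.2, 27.1 and 24.2 CPM in MC, lower in every MC library (log2 fold change -0.74, SE 0.17). The kinase gene Pim1 had 0.51 and the survival gene Birc5 had 0.83 in MC, both without overlap. In the libraries labelled HC, Hif1a (-0.56) and Icam1 (-0.61) were lower and Fos (0.86) was higher in every library than in both controls. In KMC, Icam1 had a log2 fold change of 2.41 and Il4ra of 3.14. Timp1, an inhibitor of matrix metalloproteinases, was at 2.11 and 2.167 CPM in KC and at 4.57 and 45.0 CPM in KMC, the highest in KMC 2 (log2 fold change 3.53, SE 0.95).

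Acute phase genes are classic responses to IL-6 in the liver, and several are also made by injured pancreas. Of 11 tested in MC, 10 had a positive log2 fold change (median 0.84), against 2 of 14 in the libraries labelled HC (median -0.70) and 6 of 12 in KMC (median 0.64), where 46.9, 49.8 and 51.3% of all genes were positive. Hp, which encodes haptoglobin, was at 2.12, 5.45 and 9.35 CPM in MC controls and at 126, 72.7 and 22.3 CPM in MC 1, 2 and 3. All MC libraries were higher, with MC 1 the highest, and the log2 fold change was 3.73 (SE 0.73). The adipocyte markers had the same order in MC, with sums of 128.5, 74.8 and 48.7 CPM, and 31.4 to 37.8 CPM in MC controls. Lrg1 and the complement gene C3 had 0.62 and 1.05 in MC, without overlap. Reg3g, an antibacterial lectin, was at 253 and 79.3 CPM in the controls of HC and at 47.9, 61.3 and 43.6 CPM in HC 1, 2 and 3 (log2 fold change -1.71, SE 0.44), and there Fga had -1.19 and Lbp -0.63. In KMC, Lbp (2.70) and Lcn2 (3.06) were higher and Itih4 (-2.25, or -0.87 with library size alone) was lower in both libraries than in both KC libraries.

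**Figure D3:**
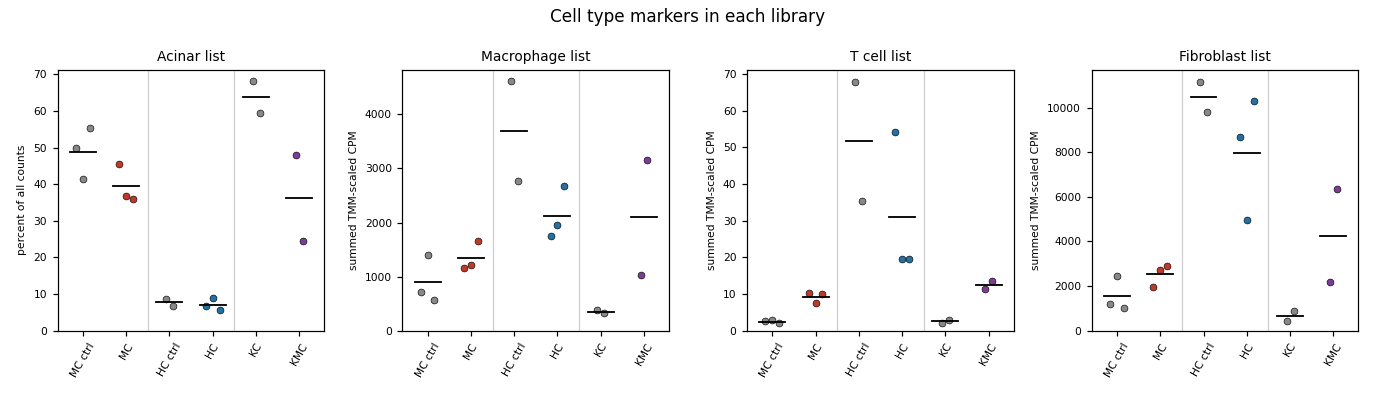
Acinar markers as a percent of all counts, and macrophage, T cell and fibroblast markers as summed TMM-scaled CPM, in each of the 15 libraries on axes that start at 0. Points are libraries, horizontal lines are group means, and vertical lines separate the experiments. T cell markers lay at 7.43 to 10.2 CPM in MC and at 2.11 to 2.80 CPM in its controls.

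Markers of other cell types differed beside these genes, and their part in the results was not tested. Ptprc was at 13.4, 19.8 and 8.40 CPM in MC controls and at 38.3, 41.0 and 52.4 CPM in MC. It was at 116 and 72.6 CPM in the controls of HC and at 62.6, 35.0 and 49.0 CPM in HC 1, 2 and 3. In KC it was at 3.13 and 10.1 CPM and in KMC at 33.4 and 58.6 CPM. Ptprc thus did not overlap between the groups of any comparison, being higher in MC and in KMC than in their controls and lower where the label was HC.

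The macrophage markers, led by Lyz2 and with none at 0, summed to 707, 1406 and 570 CPM in MC controls and 1162, 1206 and 1651 CPM in MC, where 11 of 11 tested had a positive log2 fold change. They summed to 4612 and 2760 CPM in the controls of HC and to 1753, 1955 and 2675 CPM in HC 1, 2 and 3 (12 of 12 negative). In KC the sums were 376 and 327 CPM and in KMC 1027 and 3163 CPM (12 of 12 positive). The order of these sums over libraries placed HC control 1 and KMC 2 at the top of their experiments, which were also the libraries with the most Il6, Osm and Lif. T cell markers, 8 of 8 positive in MC and in KMC, summed to 2.58, 2.80 and 2.11 CPM in MC controls and 10.2, 7.43 and 10.1 CPM in MC, with Lck the most abundant. Their sums were 67.9 and 35.4 CPM in the controls of HC against 54.3, 19.4 and 19.5 CPM in HC 1, 2 and 3, and 2.04 and 3.02 CPM in KC against 11.4 and 13.5 CPM in KMC. In KC 1, 3 of the T cell markers were at 0.

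Fibroblast markers, led by Col3a1, summed to 1214, 2437 and 995 CPM in MC controls and 1969, 2717 and 2887 CPM in MC (10 of 10 positive). Sums were 11170 and 9787 CPM in the controls of HC and 8671, 4979 and 10320 CPM in HC 1, 2 and 3 (3 of 10 positive), 446 and 905 CPM in KC and 2162 and 6361 CPM in KMC (10 of 10 positive). MC control 2 was the highest control for the fibroblast and macrophage sums and also for Osm, Lif and Osmr. Neutrophil markers had median log2 fold changes of 0.18 in MC, -0.81 in the libraries labelled HC and 2.80 in KMC. The acinar list had -0.55, -0.06 and -2.02, and the ductal list -0.09 (0.20 with library size alone), 0.40 and 0.49, in the same order.

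Medians in MC, the libraries labelled HC and KMC were 3.88, -1.23 and 1.63 for B cell markers, 1.82, -1.28 and 0.81 for plasma cell markers and 0.11, -0.40 and 0.25 for endothelial markers. The B cell markers summed to 66.3, 14.9 and 2.69 CPM in MC 1, 2 and 3 and to 1.21 to 2.12 CPM in MC controls, so MC 1 stood apart. Medians were 3.35, -0.57 and -1.48 for adipocyte markers, -0.06, 0.74 and -0.66 for islet markers (0.20 in MC and 0.72 in KMC with library size alone), and 0.44, 1.64 and 0.16 for stomach markers. Erythroid markers had medians of 0.75, 2.93 and -0.95 (0.57 in KMC with library size alone), and housekeeping genes 0.04, 0.17 and -0.07 (1.5 in KMC with library size alone). The erythroid sums were 793 and 668 CPM in HC 2 and 3, whereas HC 1 (73.0 CPM) lay between the controls (59.0 and 76.8 CPM). Of all these markers edgeR called 2, Cd79a (-1.31) and Mzb1 (-1.39), genes of B cells and plasma cells that were lower in the libraries labelled HC, where 0 genes were called without either control or without HC 2. DESeq2 called more of them, against 13.7% of all genes in KMC and 3.26% in MC. In KMC it called 24 of 26 acinar, 12 of 12 macrophage and 8 of 10 fibroblast markers. There it also called 2 of 8 T cell, 0 of 6 B cell and 0 of 6 endothelial markers. In MC it called 5 of 8 T cell, 5 of 5 B cell and 5 of 6 adipocyte markers, but 0 of 10 fibroblast markers.

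Genes that varied most like Osmr, Socs3 and Stat3 over the 15 libraries, each experiment centered on its mean, were sought among 10930 genes. Within single experiments, r of these genes was 0.84 to 0.993 with Osmr and 0.703 to 0.997 with Stat3. The libraries share their experiments and groups, so these correlations are descriptions. Closest to Osmr were Jdp2 (Pearson r 0.982, Spearman rho 0.95), Synpo (0.966 and 0.961) and Tulp3 (0.966 and 0.925). Without the 2 libraries farthest from the median of Osmr, the values of r were 0.959, 0.926 and 0.923. Closest to Socs3 were Zfp36 (r 0.915, rho 0.736), which encodes an RNA-binding protein that destabilizes cytokine transcripts, Clec2d (0.893 and 0.875) and Gpx3 (0.871 and 0.7). Without the 2 farthest libraries r was 0.815, 0.793 and 0.722, and within the HC experiment alone it was 0.08 for Zfp36 and -0.06 for Gpx3. Closest to Stat3 were Prkar1a (r 0.966, rho 0.95), Slc35b4 (0.952 and 0.925) and Pqlc2 (0.944 and 0.9), with 0.927, 0.887 and 0.87 without the 2 farthest libraries. Of the pairs of members, Lif and Stat3 varied alike in all 3 experiments (Pearson r 0.843, Spearman rho 0.829, and r of 0.974, 0.878 and 0.781 within the MC, HC and KMC experiments). Stat3 and Socs3 had an r of 0.796 and a rho of 0.743, but an r of only 0.153 within the HC experiment. Osmr and Il6st had an r of 0.867 and a rho of 0.779, and Lifr ran opposite to Il6st (r -0.833, rho -0.729). Within the MC, HC and KMC experiments, r was 0.663, 0.711 and 0.979 for Osmr and Il6st. For Lifr and Il6st it was -0.568, -0.459 and -0.97 in the same order.

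In the genome, several members are neighbors. Osm (chromosome 11 of GRCm38, 4236420 to 4241026) and Lif (4257557 to 4272514) lie on the same strand with 16.5 kb and 0 protein-coding genes between them. Osmr (chromosome 15, 6813577 to 6874969, minus strand) and Lifr (7090614 to 7197489, plus strand) are also next to each other, with 215.6 kb between them. The log2 fold changes of these neighbors in KMC were 1.45 for Osmr and -1.25 for Lifr, or 0.24 for Lifr with library size alone. Il6 lies on chromosome 5 from 30013114 to 30019981, Il11 on chromosome 7 from 4772373 to 4782859, Il6st on chromosome 13 from 112464070 to 112510086 and Il6ra on chromosome 3 from 89864059 to 89913196. Socs3 lies on chromosome 11 from 117966079 to 117970047 and Stat3 on the same chromosome from 100885098 to 100939540. Stat3 shares 72 exon bases with Stat5a on the opposite strand, and Il6ra shares 242 exon bases with the antisense gene Gm42809. The methods name a stranded library protocol, but whether counting used the strand is not given in the sources used here. How reads in these stretches were counted, or whether they were left out, is therefore not known.

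Promoters of the members were searched for binding motifs of STAT, AP-1 and CREB factors. Whether the motifs bear on the log2 fold changes was not tested. RefSeq promoters (GRCm38.p6) were at hand for 9 of the 10 genes, with 11 promoters in all. Searched on both strands in the 250 bases before the start were TGANTCA, the AP-1 motif, TGACGTCA, the CREB motif, TTCNNNGAA, the motif of STAT factors, and TTCCNGGAA, a form of the STAT motif that is contained in it. TGANTCA was found in 3 of the 11 promoters, whereas 6.75% of 32851 promoters held it. These were promoters of Il6, Lif and Il11, all 3 ligands with a promoter there, and for Il11 it was in 1 of 2 promoters. TTCNNNGAA was found in 1 of the 11, that of Socs3, whereas 7.02% of all promoters held it. TTCCNGGAA (0.913% of all promoters) and TGACGTCA (1.55%) were found in 0. The stretches around the matches are shown 5′ to 3′ on the strand of the gene, with the motif in capitals, and lie before the RefSeq start that was searched and outside the annotated exons of the gene. Those of Il11 and Socs3 lie within the gene, after a start of other transcripts farther upstream. A match is a description of letters and not a site of binding. They are at chr5:30012864-30012891 (plus strand) for Il6, chr11:4257320-4257366 (plus strand) for Lif, chr7:4778213-4778259 (minus strand) for Il11 and chr11:117969492-117969540 (minus strand) for Socs3. The motif starts 249, 228, 98 and 154 bases before the RefSeq start in the same order, at the second start listed for Il11.
Il6: cTGAGTCActtttaaagaaaaaaaagaa
Lif: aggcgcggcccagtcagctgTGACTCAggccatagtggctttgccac
Il11: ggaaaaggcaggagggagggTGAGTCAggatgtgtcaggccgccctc
Socs3: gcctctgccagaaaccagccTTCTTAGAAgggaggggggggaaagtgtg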

How the data were processed

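Per the labels RNA was extracted from pancreata and each library pooled 3 mice, whereas the paper describes the KC and KMC samples as tumors. The authors sequenced it on a NovaSeq with 100-bp paired-end reads, aligned the reads to GRCm38 (mm10) with STAR 2.6.1a and deposited raw read counts per gene, without normalization, in 3 tables. The submitters' processing notes also name bcl2fastq 2.17.14, HTSeq 0.6.1 and DESeq2. The GENCODE release is not given in the sources used here. The authors also deposited a table of fold changes and p-values of MC against control, which was not used. Of the identifiers, 15164 of 15175 in the MC table and 49326 of 49585 in the HC and KMC tables were in GENCODE M21, from which symbols, positions and exon lengths were taken.

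Low counts were removed by filterByExpr and TMM scaling applied, and each pair of groups was tested by edgeR 4.0.16 (glmQLFit and glmQLFTest, 2-sided) in R 4.3.3. Each SE was taken as the size of the log2 fold change over √F. The difference of effects was a contrast in one fit over 4 groups. Alternatives were DESeq2 1.42.0, the newer form of the edgeR fit, other scalings and filters, the replicate number as a block, joint fits, leaving out each library and, chosen after seeing the data, the sign of the HC effect turned. Levels across tables were not tested. Named were all members, Map4k1, the 3 genes of each pathway list with the smallest unadjusted p in each comparison (apart from genes that, like an allele shared by KC and KMC mice, are not reported here), and the 3 genes most correlated with Osmr, Socs3 and Stat3 among genes with at least 2 CPM on average in each table. Outside this rule, Ptprc was added as a leukocyte reference, Xist and Ddx3y for sex and the most abundant gene of some marker lists, and Cd79a and Mzb1 were chosen after their values were seen. Members and lists were chosen with earlier results of these data known.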

Additional observations from a re-analysis of the deposited data

How the results depend on the processing

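For MC against control, edgeR called 0 genes, although 2038 had an unadjusted p under 0.05, whereas by DESeq2 453 genes and 1 member, Socs3, were called, and edgeR with library size alone called 1 gene and 0 members. Leaving out each library gave 0 to 718 genes (718 without MC control 2 and 171 without MC 1) and 0 members. The members with an unadjusted p under 0.05 were then 1 to 4, with 4 without MC control 2 and 3 without MC 1.

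For HC against control, where edgeR called 104 genes, DESeq2 called 467, edgeR with library size without the acinar list 51, edgeR without a filter 395 and the joint fit of 9 libraries with KC and KMC 1. Leaving out each library gave 0 to 379 genes (379 without HC 1, 3 without HC 3, 0 without HC 2 or either control) and 0 members.

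For KMC against KC, where edgeR called 3 genes, DESeq2 called 2159 genes and 2 members, library size alone 4714 genes and 8 members, library size without the acinar list 2006 genes and 1 member, no filter 9 genes and 0 members, and the joint fit 3230 genes and 2 members. Of the 4714 genes 4694 were higher, against 1 of the 3. Leaving out each library gave 0 to 2312 genes and 0 to 4 members. The 4 members were Il6, Osm, Osmr and Socs3, without KMC 1, a fit in which the lone KMC library is assumed to vary like the other group. Without KMC 2 there were 76 genes, and without KC 1 or KC 2 there were 0.

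For the difference of effects, the count of members was 0 under every alternative that kept all libraries. It was 0 to 1 without each library (Il6, without MC control 2, from few counts in the MC experiment). With library size alone the median of all genes moved by 0.38, and without the acinar list by 0.15, and 94.9% of the genes called had the higher effect in MC with library size alone, against 81.2% with TMM. These shares follow the HC label. With the sign of the HC effect turned, an alternative chosen after seeing the data, 16 genes and 0 members were called, 87.5% of the genes higher, and 3 genes with library size alone. The values of members were then 0.27 for Il6, -0.11 for Il6ra, -0.0071 for Il6st, -0.53 for Osm, -0.25 for Osmr, 0.14 for Lif, -0.30 for Lifr, -0.057 for Il11, 0.032 for Stat3 and 1.12 for Socs3.

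Replicate numbers are shared by the groups and were not taken to pair the libraries. Correlations of their deviations were 0.07, 0.30 and -0.30 in the MC experiment, where 2 of 6 libraries correlated best with their own number. They were 0.19 and 0.17 in the HC experiment, where 4 of 5 libraries did so. In the KMC experiment the correlation was 0.05 and 4 of 4 did so, but with 2 libraries per group both numbers give the same correlation. With the number as a replicate block, 0 genes and 0 members were called in MC, 339 genes and 0 members in the libraries labelled HC and 2464 genes and 2 members, Osm and Osmr, in KMC.

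Signs of members changed as follows, and none of these values was called. Lifr was 0.023 in MC, -0.0044 in the libraries labelled HC, 0.24 in KMC and 0.050 in the difference with library size alone, and -0.0096 in the libraries labelled HC without the acinar list. Leaving out each library gave -0.12 to 0.13 for Il6ra, -0.045 to 0.22 for Il6st and -0.020 to 0.55 for Osmr in MC. It gave -1.54 to 0.11 for Osm, -0.25 to 0.37 for Lifr and -0.21 to 0.21 for Socs3 in the libraries labelled HC, and -0.22 to 1.60 for Lif and -0.039 to 0.48 for Stat3 in KMC. The cause of these changes was not tested. Depth limits Il6 and Il11 in the MC and KMC experiments, where single libraries held 0 to 81 counts of them.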
